A study of Homo sapiens with 12 samples.

Results

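The comparison set HLF cells grown by Inject-Embed against HLF cells grown by Mix-Embed, both 3D cultures in Matrigel, across all genes of the deposited count table. HLF is a human hepatocellular carcinoma line, labelled wild-type in every group, and Matrigel is a basement membrane extract rich in laminin and collagen IV. The members are the 4 libraries whose columns carry these names, 2 replicates of each culture, of 12 libraries in the series. In Inject-Embed, a suspension of 2000 cells per well was delivered by pipette tip into the middle of a gel that had already set. In Mix-Embed, 10000 cells per well were stirred into liquid Matrigel and layered over a set gel. Flat 2D culture of the same line, harvested after 2 days near confluence, gave 2 further libraries that serve as a point of orientation, and the same pair of 3D cultures in the line Huh7, started from 4000 and 20000 cells per well, gave 4 libraries for a comparison between lines. All 3D cultures were harvested between day 6 and day 8, with the day not given by group. The way of embedding, the number of cells seeded and any difference in harvest day therefore cannot be told apart. The design text calls the replicates biological without saying whether they came from separate cultures, so the p-values measure the spread between these libraries, which may be technical.

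Several gene programmes matter for what follows. Type I interferon signalling runs from receptors at the cell surface through the kinases JAK1 and TYK2 to a complex that holds STAT2 and IRF9 and binds the interferon-stimulated response element (ISRE) in the promoters of antiviral genes. Immediate early genes such as EGR1 and FOS are transcribed within minutes of a growth factor or mechanical stimulus, many of them through serum response factor bound to CArG boxes. Cholesterol synthesis enzymes are transcribed together by SREBP2 when sterol in the endoplasmic reticulum is low. HLF is a poorly differentiated line that has lost most hepatocyte gene expression and resembles mesenchymal cells.

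The 4 libraries held 14402603 and 14908163 counts in Inject-Embed and 13521290 and 15540021 counts in Mix-Embed. Levels are given in CPM, counts scaled to the library's total with the TMM method, on which 3 counts amount to between 0.178 and 0.205 CPM here. Values stand in the order replicate 1, replicate 2 (n = 2 libraries a culture). The 8 hepatocyte markers were low. Their summed level was 7.59 and 7.71 CPM in Inject-Embed and 13.8 and 12.4 CPM in Mix-Embed, APOB and TTR had no counts in either culture, and ALB had none in Inject-Embed. Of the 8, AFP and SERPINA1 were called lower in Inject-Embed. The 6 mesenchymal markers summed to 3075 and 3043 CPM in Inject-Embed against 3021 and 2984 CPM in Mix-Embed. The 6 epithelial markers summed to 3.18 and 4.08 CPM in Inject-Embed and to 5.47 and 5.82 CPM in Mix-Embed. Of these, ESRP1 and GRHL2 had no counts in either culture, and of the 5 tested 1 was called lower in Inject-Embed. That call was lost under 5 of the 14 alternative fits described below. Of markers for other cells, the 5 endothelial ones summed to at most 2.12 CPM and the 6 leukocyte and erythroid ones to at most 0.439 CPM in any of the 4 libraries. The 7 fibroblast and stellate markers, which overlap with genes that mesenchymal tumour cells express, summed to 280.0 and 283 CPM in Inject-Embed and to 315 and 311 CPM in Mix-Embed. Mitochondrial ribosomal RNA took 0.477% and 0.468% of counts in Inject-Embed against 0.597% and 0.579% in Mix-Embed, and its part in the results was not tested.

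Most differences were small, and most of the large ones were lower levels in Inject-Embed than in Mix-Embed. With edgeR's quasi-likelihood test and Benjamini-Hochberg adjustment at 0.05, 1600 of 19342 genes tested were called (8.27%), 689 higher (3.56%) and 911 lower (4.71%) in Inject-Embed. The median absolute log2 fold change, Inject-Embed over Mix-Embed, was 0.32 among called genes and 0.16 among all genes tested. A change of at least 2-fold was called for 174 genes (0.9%), 30 higher (0.155%) and 144 lower (0.744%). Among protein-coding genes of at least 10 CPM in the higher group, these were 2 higher and 41 lower. Without regard to a test, both Inject-Embed libraries lay above both Mix-Embed libraries for 4525 genes (23.4%) and below them for 4664 genes (24.1%). Gene length moved with direction. With the genes split into 3 groups of equal number by length, 223 of the longest were called higher and 519 lower, and 178 of the shortest were called higher and 108 lower; its part in the results was not tested. Each of the 4 libraries was also left out in turn, always in the order Inject-Embed replicate 1, Inject-Embed replicate 2, Mix-Embed replicate 1, Mix-Embed replicate 2, which left 791, 747, 1033 and 798 calls. Where a list's count moved by over 1.5 times, the counts of these 4 fits follow it in the same order.

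**Figure D1:**
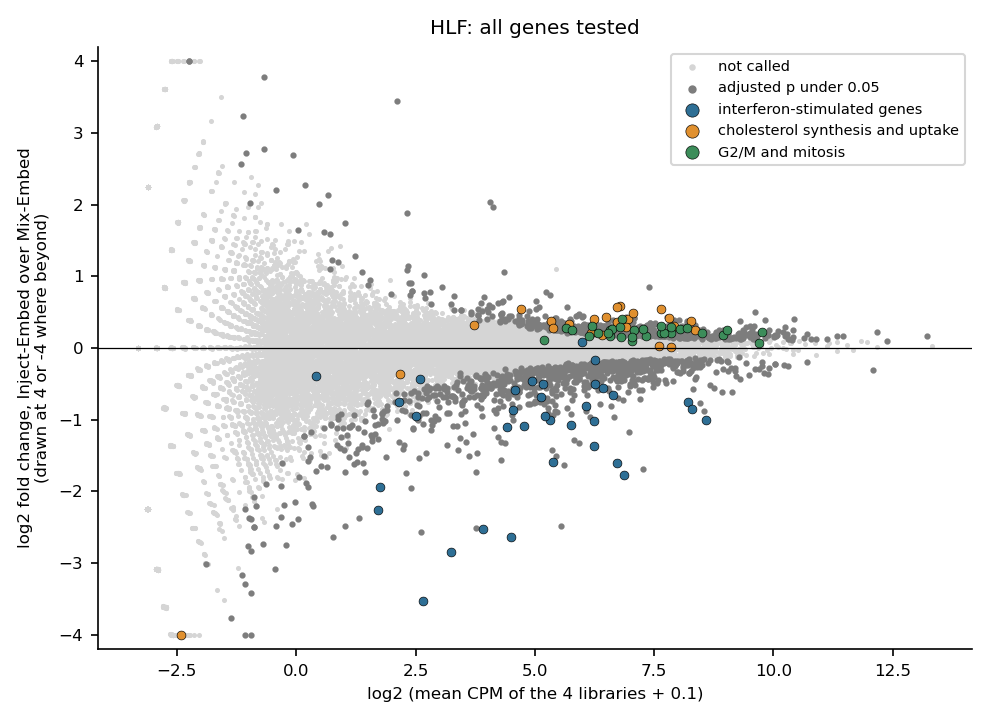
Log2 fold change of Inject-Embed over Mix-Embed in HLF (vertical axis, drawn at 4 or -4 where beyond) against the log2 mean level of the 4 libraries in CPM plus 0.1 (horizontal axis), 1 point a gene for the 19342 genes tested, dark grey where the adjusted p was under 0.05. The interferon-stimulated genes (blue) spread downwards to -3.53, while the mitosis genes (green) and 23 of the 25 cholesterol genes (orange) lie above 0.

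The interferon-stimulated genes had the lowest median fold change of the 40 gene lists. Of 34 interferon-stimulated genes on the list, 29 were called, all lower in Inject-Embed, against 4.71% of all genes, and the list's median log2 fold change was -0.95 beside 0 for all genes tested. Under the 14 alternatives between 22 and 29 members were called, each lower. The summed level of the list was 1586 and 1563 CPM in Inject-Embed, against 3013 and 2944 CPM in Mix-Embed and 1076 and 1087 CPM in 2D. Both Inject-Embed sums therefore lie under both Mix-Embed sums and above both 2D sums. In bulk RNA, fewer cells expressing a gene and less of its RNA per cell cannot be told apart. The 12 protein-coding genes of lowest fold change, among those called, separate between the groups and at 10 CPM or more in the higher one, include 6 of the list.

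Effectors of the response had the lowest fold changes of the list. IFITM1, a membrane protein that blocks virus entry and one of a family of near-identical copies whose reads can be split between members, stood (ENSG00000185885, chr11:313506-315272, GRCh38) at 1.1 and 0.878 CPM in Inject-Embed, against 12.1 and 10.9 CPM in Mix-Embed, a log2 fold change of -3.53 ± 0.32 (standard error from the test, adjusted p = 4.72e-11). XAF1, an interferon-induced partner of the apoptosis inhibitor XIAP, was at 1.95 and 2.57 CPM in Inject-Embed and 17.3 and 15.5 CPM in Mix-Embed (-2.85 ± 0.25, adjusted p = 2.54e-11). BST2, or tetherin, which holds budding virus at the cell surface, was at 4.73 and 4.2 CPM in Inject-Embed and 25.8 and 25.5 CPM in Mix-Embed (-2.52 ± 0.19, adjusted p = 1.98e-13). In all of these the pairs of libraries are far apart, and the 2D libraries, at 0.124 and 0.063 CPM for IFITM1, 0.31 and 0.504 CPM for XAF1 and 0.867 and 1.13 CPM for BST2, were lower still. OAS2, an enzyme that makes 2-5A to activate RNase L, was at 6.87 and 5.58 CPM in Inject-Embed and 41 and 36.6 CPM in Mix-Embed (-2.64 ± 0.16, adjusted p = 6.57e-16). Its larger relative OAS3 had 226 and 221 CPM in Inject-Embed and 396 and 408 CPM in Mix-Embed (-0.85 ± 0.05, adjusted p = 2.68e-16). IFI44L, an interferon-induced gene of unsettled function, had 52.6 and 53.1 CPM in Inject-Embed and 178 and 183 CPM in Mix-Embed (-1.77 ± 0.09, adjusted p = 5.74e-20). No Inject-Embed value of these genes reached a Mix-Embed value. IFI6, a small interferon-induced membrane protein, had 49.8 and 54.1 CPM in Inject-Embed and 155 and 162 CPM in Mix-Embed (-1.61 ± 0.09, adjusted p = 2.2e-18). IFIT1, which binds viral RNA that lacks cap methylation, had 43.3 and 41.1 CPM in Inject-Embed and 112 and 106 CPM in Mix-Embed (-1.37 ± 0.09, adjusted p = 3.34e-15). TRIM22, an interferon-induced ubiquitin ligase outside the list, was at 1.43 and 2.07 CPM in Inject-Embed and 9.91 and 10.9 CPM in Mix-Embed (-2.56 ± 0.34, adjusted p = 4.5e-07). The groups were separate for these 3 as well.

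STAT2 and IRF9, subunits of the factor that binds the ISRE, were lower too. STAT2 had 69.1 and 70.1 CPM in Inject-Embed and 104 and 101 CPM in Mix-Embed (-0.55 ± 0.07, edgeR quasi-likelihood test, adjusted p = 7.38e-08), and IRF9 had 3.5 and 4.08 CPM in Inject-Embed and 7.93 and 6.77 CPM in Mix-Embed (-0.95 ± 0.23, adjusted p = 0.00441). The 5 list members not called were MX1, IRF7, ISG20, SAMHD1 and MX2. MX1, a dynamin-like antiviral GTPase, had 4.02 and 2.51 CPM in Inject-Embed and 6.01 and 4.99 CPM in Mix-Embed (adjusted p = 0.0838), and SAMHD1, a dNTP hydrolase, had 75.7 and 68.5 CPM in Inject-Embed and 81.1 and 80.8 CPM in Mix-Embed (adjusted p = 0.17). IRF7 and ISG20, an interferon regulatory factor and an exonuclease, stood under 10 CPM in all 4 libraries (adjusted p = 0.698 and 0.222). MX2, at 63 and 66.6 CPM in Inject-Embed and 61.7 and 60.7 CPM in Mix-Embed (adjusted p = 0.658), was the member with its fold change above 0.

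**Figure D2:**
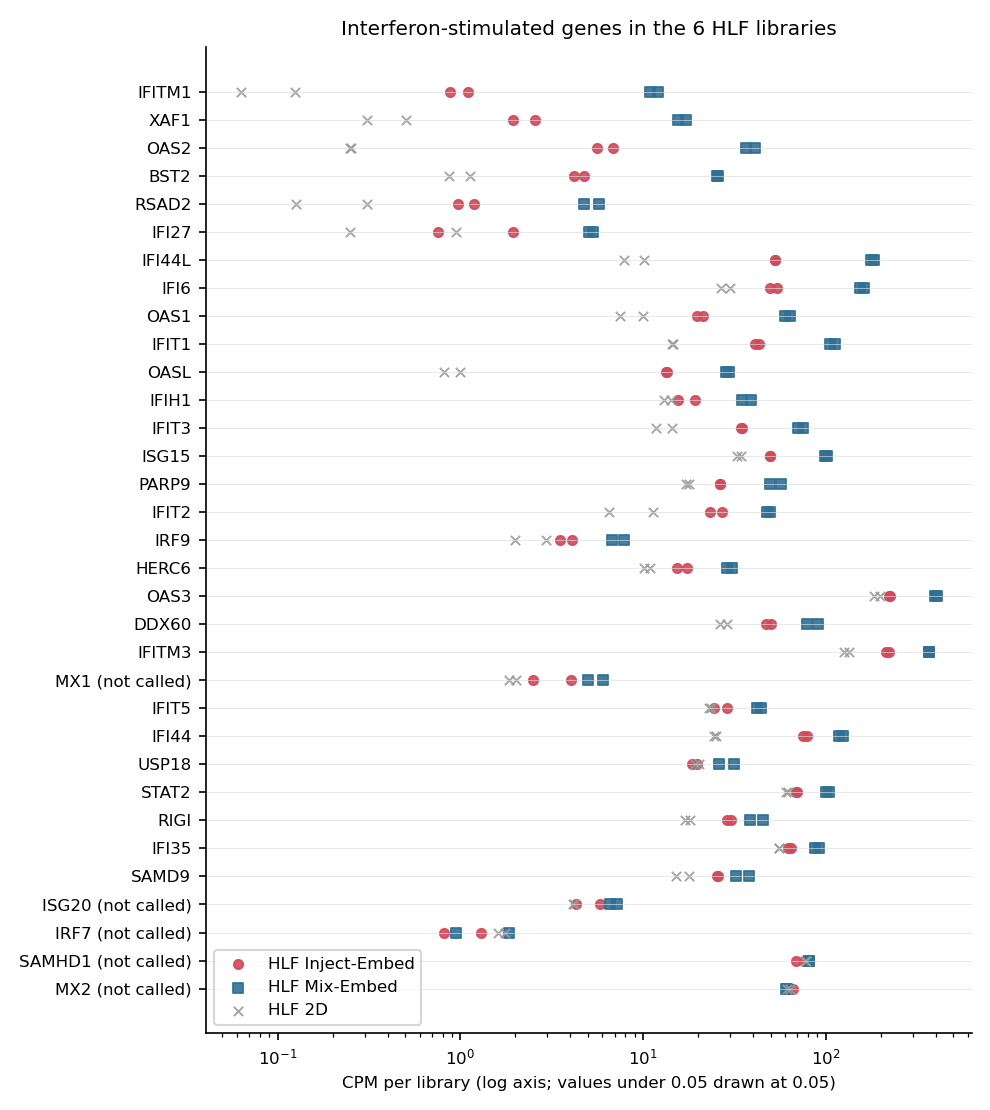
Level of 33 of the 34 interferon-stimulated genes in CPM per library (horizontal log axis), with Inject-Embed as red circles, Mix-Embed as blue squares and 2D as grey crosses, ordered by fold change from the lowest at the top, and genes that missed the threshold marked as not called. For IFITM1 at the top both Inject-Embed libraries lie near 1 CPM, against 12.1 and 10.9 CPM in Mix-Embed, and for MX2 at the bottom the groups are close together.

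Many promoters of these genes hold a sequence that the choice of the 4 libraries did not use. The core of the ISRE was searched as GAAA, any 2 bases and GAAA again on both strands in the 250 bases before each RefSeq gene start (GRCh38.p14), counting matches that overlap. It was found for 1014 of 27305 genes with a promoter entry (3.71%) and for 19 of the 27 list members that have one (70.4%), a list written from known interferon targets. It was found for 7 of 13 antigen presentation genes, 0 of 18 cholesterol genes and 0 of 16 immediate early genes with an entry. The sterol element, searched as ATCAC, any base and CCAC in the same way, was found for 0.157% of genes and for 1 of the 18 cholesterol genes. A match describes letters in this window and does not show a bound site. The following promoters were chosen from genes described above that have both a match and a large fold change. XAF1, STAT2 and IRF9, also described above, had no match in this window. The sequences are printed 5′ to 3′ on the strand of the gene with the matches in capitals.
IFITM1, chr11:313790-314039, + strand: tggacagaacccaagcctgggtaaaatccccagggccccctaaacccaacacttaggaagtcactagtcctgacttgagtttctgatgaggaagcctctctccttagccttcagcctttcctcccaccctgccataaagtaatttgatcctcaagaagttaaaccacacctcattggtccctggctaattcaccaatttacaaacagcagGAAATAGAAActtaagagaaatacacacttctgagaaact
BST2, chr19:17405631-17405880, - strand: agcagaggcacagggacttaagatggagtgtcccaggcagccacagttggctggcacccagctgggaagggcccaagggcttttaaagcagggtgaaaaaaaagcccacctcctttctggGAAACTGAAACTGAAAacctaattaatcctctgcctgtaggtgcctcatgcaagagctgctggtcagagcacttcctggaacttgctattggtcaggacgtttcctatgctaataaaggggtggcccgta
IFI6, chr1:27672193-27672442, - strand: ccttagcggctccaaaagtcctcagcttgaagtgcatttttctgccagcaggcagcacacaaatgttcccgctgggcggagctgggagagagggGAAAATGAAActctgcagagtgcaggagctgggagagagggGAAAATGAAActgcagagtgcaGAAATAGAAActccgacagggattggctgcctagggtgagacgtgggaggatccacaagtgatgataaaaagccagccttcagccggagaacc
IFIT1, chr10:89392373-89392622, + strand: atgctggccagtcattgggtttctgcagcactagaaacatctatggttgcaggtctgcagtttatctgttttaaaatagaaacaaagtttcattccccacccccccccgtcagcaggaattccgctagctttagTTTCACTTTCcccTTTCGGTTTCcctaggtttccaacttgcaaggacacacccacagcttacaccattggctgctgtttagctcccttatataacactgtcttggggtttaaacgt
The match starts 40 bases before the RefSeq gene start in IFITM1. The coordinates given above for IFITM1 begin further upstream, so its printed window lies inside them. BST2 has 2 overlapping matches that start 130 and 124 bases before the gene start. IFI6 has 3, at 156, 115 and 93 bases, and the 2 of IFIT1, at 116 and 103 bases, read as matches on the opposite strand.

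Most antigen presentation genes and some NF-kB targets were also called lower. Of 16 antigen presentation genes, 12 were called, all lower (median log2 fold change -0.34), and 7, 8, 10 and 6 with 1 library left out and 3 with limma on log2(FPKM + 0.1). HLA class I genes are near-identical copies, so counts can be split between them. B2M, the light chain common to class I molecules and a gene of 1 copy, had 270.0 and 259.8 CPM in Inject-Embed and 349 and 328 CPM in Mix-Embed (-0.35 ± 0.05, edgeR quasi-likelihood test, adjusted p = 7.89e-07). HLA-B had 60.1 and 61 CPM in Inject-Embed and 106 and 102 CPM in Mix-Embed (-0.78 ± 0.08, adjusted p = 4.21e-09), a call that was lost with limma on log2(FPKM + 0.1). TAPBP, or tapasin, which helps load peptide onto class I, had 239 and 228 CPM in Inject-Embed and 289 and 301 CPM in Mix-Embed (-0.34 ± 0.06, adjusted p = 1.78e-05). The groups did not overlap for any of these 3, though the fold changes were well under 2-fold. Of 23 NF-kB targets and cytokines, 8 were called, all lower, and 15 were not, with a median of -0.29 (5, 7, 5 and 7 with 1 library left out). CSF1, the growth factor of macrophages, was at 30.5 and 38.1 CPM in Inject-Embed and 88.1 and 84.7 CPM in Mix-Embed (-1.33 ± 0.10, adjusted p = 4.28e-14). VCAM1, an adhesion molecule for leukocytes, was at 85.2 and 77.3 CPM in Inject-Embed and 137 and 125 CPM in Mix-Embed (-0.69 ± 0.08, adjusted p = 4.56e-09). CCL5, a chemokine for T cells, was at 6.1 and 6.59 CPM in Inject-Embed and 17.9 and 18 CPM in Mix-Embed (-1.50 ± 0.19, adjusted p = 1.78e-07). Both Inject-Embed libraries were under both Mix-Embed libraries for each. IL6 and CXCL8 were under 2 CPM in every library and were not called (adjusted p = 0.582 and 1). C3, the central complement protein, was lower too and had 15 and 16.6 CPM in Inject-Embed and 30.7 and 29.6 CPM in Mix-Embed (-0.93 ± 0.07, adjusted p = 7.38e-13).

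Of 23 immediate early genes tested, 8 were called, all lower (7 to 10 under the alternatives), and 15 were not, with a median of -0.27. JUN (0.11), KLF2 (0.12) and ATF3 (0.35), the first a subunit of AP-1, were among those not called, with values above 0. EGR1, a zinc finger factor induced by serum and stretch, stood (ENSG00000120738, chr5:138465490-138469315, GRCh38) at 14.9 and 13.4 CPM in Inject-Embed, against 75.6 and 82.2 CPM in Mix-Embed and 8.8 and 8.32 CPM in 2D (-2.48 ± 0.10, edgeR quasi-likelihood test, adjusted p = 8.81e-22). Mix-Embed stands apart from both other cultures in this gene. FOS, a subunit of AP-1, was at 5.51 and 6.96 CPM in Inject-Embed and 19.8 and 21.6 CPM in Mix-Embed (-1.73 ± 0.17, adjusted p = 2.11e-10). JUNB, its partner, was at 38.9 and 44.3 CPM in Inject-Embed and 65.9 and 71.7 CPM in Mix-Embed (-0.73 ± 0.10, adjusted p = 6.02e-07), and DUSP6, a phosphatase induced by and acting on ERK, at 11.5 and 10.5 CPM in Inject-Embed and 17.8 and 18.1 CPM in Mix-Embed (-0.71 ± 0.11, adjusted p = 8.08e-06). None of these pairs overlapped. MYC, at 86.3 and 83.5 CPM in Inject-Embed and 87.2 and 91.1 CPM in Mix-Embed, was not called (adjusted p = 0.592). The CArG box, named here for its consensus, was found in the same window for 1.44% of genes with an entry and for 1 of the 16 immediate early genes with one, EGR1, so FOS, JUNB and DUSP6 had none there. The EGR1 promoter holds 2, in capitals, which start 105 and 83 bases before the gene start.
EGR1, chr5:138465229-138465478, + strand: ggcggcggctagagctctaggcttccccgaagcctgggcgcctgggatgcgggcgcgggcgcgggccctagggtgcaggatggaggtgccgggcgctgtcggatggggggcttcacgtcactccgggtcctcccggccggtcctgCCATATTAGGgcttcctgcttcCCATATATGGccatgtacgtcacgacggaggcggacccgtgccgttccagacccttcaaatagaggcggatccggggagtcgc
TXNIP, an arrestin-like inhibitor of glucose uptake and thioredoxin, was lower too. It had (ENSG00000265972, chr1:145992435-145996600, GRCh38) 72.6 and 72.9 CPM in Inject-Embed, against 246 and 222 CPM in Mix-Embed and 20.8 and 16.8 CPM in 2D (-1.68 ± 0.07, adjusted p = 2.78e-21). Its relative ARRDC4 had 7 and 7.65 CPM in Inject-Embed and 18.8 and 21.6 CPM in Mix-Embed (-1.46 ± 0.18, adjusted p = 1.05e-07). Both Mix-Embed libraries exceeded both Inject-Embed libraries in each. Of the list of 10 genes that holds both, 4 were called, all lower (3, 3, 2 and 4 with 1 library left out). The others were ARRDC3 (-0.38) and KLF10 (-0.36), each of which lost the call with both limma fits and without 2 of the 4 libraries.

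**Figure D3:**
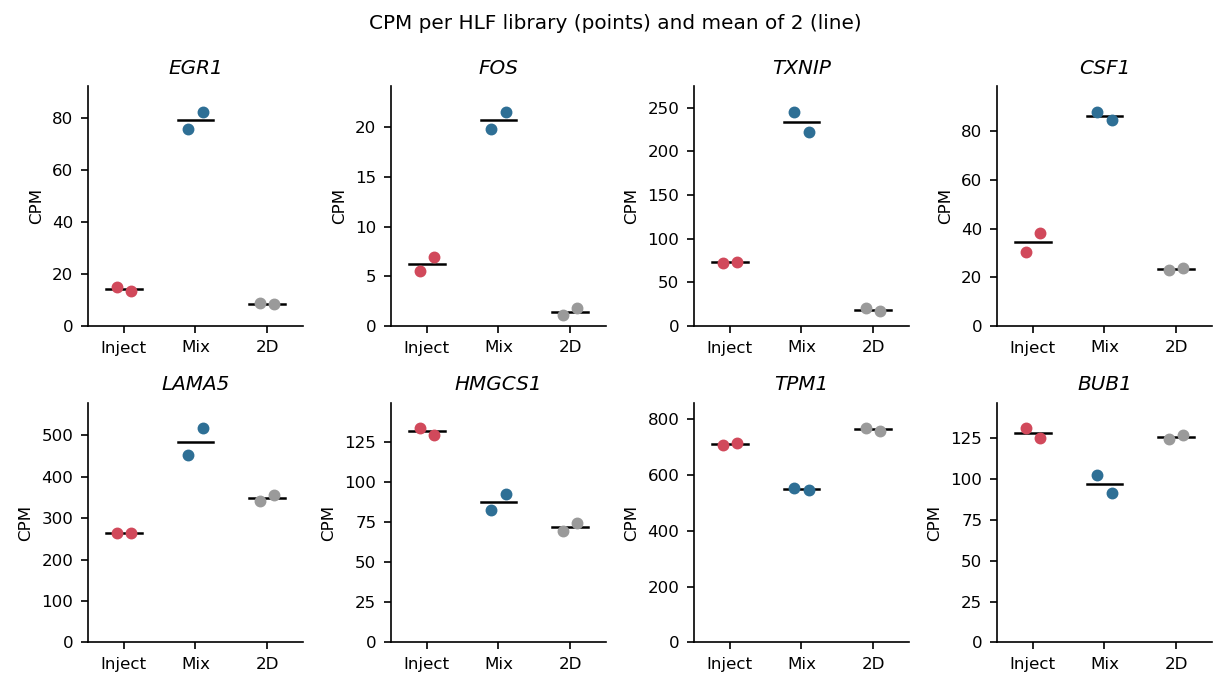
CPM of 8 genes in each HLF library (points) and the mean of 2 libraries (line), with Inject-Embed left, Mix-Embed in the middle and 2D right, on linear axes from 0. EGR1, FOS, TXNIP, CSF1 and LAMA5 are higher in Mix-Embed than in Inject-Embed, and HMGCS1, TPM1 and BUB1 are higher in Inject-Embed than in Mix-Embed.

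Matrix genes moved both ways. Of 18 basement membrane genes, 8 were called, all lower, with a median of -0.23, and of 25 fibrillar collagens and matrix glycoproteins 5 were called lower and 1 higher. LAMA5, the alpha chain of laminins of mature basement membranes, had 265 and 264 CPM in Inject-Embed and 452 and 517 CPM in Mix-Embed (-0.88 ± 0.06, edgeR quasi-likelihood test, adjusted p = 6.85e-16). HSPG2, or perlecan, had 352 and 346 CPM in Inject-Embed and 487 and 544 CPM in Mix-Embed (-0.56 ± 0.06, adjusted p = 7.94e-10), and FN1, fibronectin, 54 and 53.8 CPM in Inject-Embed and 76.5 and 78.4 CPM in Mix-Embed (-0.52 ± 0.05, adjusted p = 1.95e-11). The cultures did not overlap for these. COL4A1, a chain of collagen IV, was not called at 288 and 288 CPM in Inject-Embed and 312 and 323 CPM in Mix-Embed (adjusted p = 0.0917), nor was COL1A1 (adjusted p = 0.178). PLAU, the urokinase plasminogen activator, was lower at 329.5 and 335 CPM in Inject-Embed and 404 and 381 CPM in Mix-Embed (-0.24 ± 0.05, adjusted p = 0.000582). The 1 glycoprotein called higher was TNC, tenascin C (0.18), whose call was lost in both limma fits and without Inject-Embed replicate 1 or Mix-Embed replicate 1. Of 23 YAP and TEAD targets, 5 were called, all lower (3, 3, 4 and 3 with 1 library left out). They were CCN2, AMOTL2 (-0.39), ARHGEF17 (-0.28), LATS2 (-0.34) and ASAP1, the last named after its value was seen. The calls of ARHGEF17 and LATS2 were lost without Inject-Embed replicate 1 or Mix-Embed replicate 2. CCN2, a secreted matricellular protein, had 22.5 and 20.1 CPM in Inject-Embed and 37.8 and 35.2 CPM in Mix-Embed (-0.78 ± 0.11, adjusted p = 8.2e-07), while CCN1 was not called (adjusted p = 0.098). The 9 actin and contractility genes called, of 24, were all higher, with TPM1, a tropomyosin, at 708 and 715 CPM in Inject-Embed and 555 and 546 CPM in Mix-Embed (0.37 ± 0.05, adjusted p = 6.57e-08).

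Cholesterol synthesis was the list with the highest median in Inject-Embed. Of 25 genes, 18 were called, all higher, against 3.56% of all genes, with a median of 0.36. Between 15 and 19 were called higher under the 14 alternatives, and 1 member was called lower without Mix-Embed replicate 1. HMGCS1, which makes HMG-CoA at the head of the pathway, had (ENSG00000112972, chr5:43289395-43313512, GRCh38) 134 and 129.8 CPM in Inject-Embed, against 82.9 and 92.7 CPM in Mix-Embed and 69.6 and 74.7 CPM in 2D (0.58 ± 0.05, edgeR quasi-likelihood test, adjusted p = 6.13e-11). FDFT1, squalene synthase, had 231 and 239 CPM in Inject-Embed and 155 and 167 CPM in Mix-Embed (0.54 ± 0.05, adjusted p = 6.18e-12). MVD, which makes isopentenyl diphosphate, had 125 and 128 CPM in Inject-Embed and 79.9 and 90.7 CPM in Mix-Embed (0.57 ± 0.06, adjusted p = 6.68e-09). ACAT2, an acetoacetyl-CoA thiolase, had 155 and 157 CPM in Inject-Embed and 111 and 110.4 CPM in Mix-Embed (0.49 ± 0.05, adjusted p = 2.6e-09). Every Inject-Embed library was above every Mix-Embed library for the 4 enzymes, by under 2-fold. Of 18 fatty acid synthesis and lipid droplet genes, 5 were called higher (2, 1, 3 and 3 with 1 library left out) and 1 lower. The 5 were SCD, ACLY, PLIN3, LPIN1 and ME1, and 4 of them, all but SCD, lost the call under at least 2 alternatives. SCD, a desaturase, stood at 1575 and 1556 CPM in Inject-Embed and 1186 and 1172 CPM in Mix-Embed (0.41 ± 0.03, adjusted p = 1.82e-12). The lower one, SREBF1 (-0.28), the transcription factor of fatty acid synthesis, lost its call with limma on log2(FPKM + 0.1) and without Mix-Embed replicate 2. None of the 21 fatty acid oxidation and peroxisome genes was called by edgeR or DESeq2, with 4 higher and 1 lower at an unadjusted p under 0.05.

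Most mitotic genes were called slightly higher in Inject-Embed, and most G1/S genes were not called. Of 30 genes of G2/M and mitosis, 23 were called, all higher, with a median of 0.22. BUB1, a kinase of the spindle checkpoint, had 131 and 125 CPM in Inject-Embed and 103 and 91.6 CPM in Mix-Embed (0.40 ± 0.06, edgeR quasi-likelihood test, adjusted p = 5.43e-06). CCNB1, the mitotic cyclin, had 318 and 319.7 CPM in Inject-Embed and 268 and 257 CPM in Mix-Embed (0.28 ± 0.05, adjusted p = 7.22e-05). MKI67, the proliferation marker Ki-67, was not called, at 867 and 827 CPM in Inject-Embed and 793 and 824 CPM in Mix-Embed (adjusted p = 0.406). With 1 library left out, 16, 13, 17 and 13 mitotic genes were called. Of 32 G1/S and replication genes, 21 were not called and 11 were, all higher (5, 3, 5 and 4 with 1 library left out), with MCM6, a subunit of the replicative helicase, at 0.29. CDKN1A, the p21 inhibitor of cyclin-dependent kinases, was lower at 17.4 and 16.1 CPM in Inject-Embed and 28.1 and 29.4 CPM in Mix-Embed (-0.78 ± 0.13, adjusted p = 1.54e-05), the 1 called of 9 in its list. GDF15, a stress-induced cytokine that also belongs to the p53 targets, was lower too (-1.09 ± 0.16, adjusted p = 4.19e-06). Of 17 p53 targets tested, 3 were called lower, CDKN1A and GDF15 among them, 1 was called higher and 13 were not called. The median of that list was -0.06. Of 14 replication-dependent histones, 3 were called, all lower (H2AC6, H2BC21 and H2BC12), and their list summed to 291 and 280.2 CPM in Inject-Embed and 375 and 361 CPM in Mix-Embed. Poly-A selection catches these messages only in part, and the part of that in the result was not tested.

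Some genes of protein synthesis and energy metabolism were called, with small fold changes. Of 35 cytosolic ribosomal proteins, 16 were called, all higher, and 19 were not, with a median of 0.13. That count was 10 with scaling by library totals alone, and 9, 5, 8 and 8 with 1 library left out. Ribosomal protein genes have processed copies that could share their reads. RPS2 had 1469 and 1499.9 CPM in Inject-Embed and 1259 and 1238 CPM in Mix-Embed (0.25 ± 0.04, edgeR quasi-likelihood test, adjusted p = 4.28e-06). Of 32 nuclear-encoded oxidative phosphorylation genes, 22 were not called and 10 were, all higher (6, 6, 5 and 6 with 1 library left out), led by ATP5F1B, the catalytic subunit of ATP synthase (0.23 ± 0.04, adjusted p = 2.4e-05). Of 18 glycolysis genes, 8 were called higher (2, 2, 3 and 5 with 1 library left out) and 2 lower (0, 0, 1 and 0), with GAPDH at 0.17 on one side and SLC2A1, the glucose transporter GLUT1, at -0.20 on the other, the call of SLC2A1 being lost under 7 of the 14 alternatives. The hypoxia list was split, with 4 of 28 called higher (NDRG1, STC2, PFKFB3 and LOX) and 4 lower (ADM, P4HA1, HK2 and SLC2A1; 1, 2, 3 and 1 with 1 library left out) and a median of 0.01. The call of LOX was lost with limma on log2(FPKM + 1). NDRG1, a stress-induced gene, had 29.2 and 25.1 CPM in Inject-Embed and 16.6 and 16.4 CPM in Mix-Embed (0.72 ± 0.09, adjusted p = 3.76e-08), while ADM, adrenomedullin, had 41.7 and 42.1 CPM in Inject-Embed and 65.9 and 62.8 CPM in Mix-Embed (-0.62 ± 0.09, adjusted p = 4.07e-06). VEGFA was not called (adjusted p = 0.327).

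**Figure D4:**
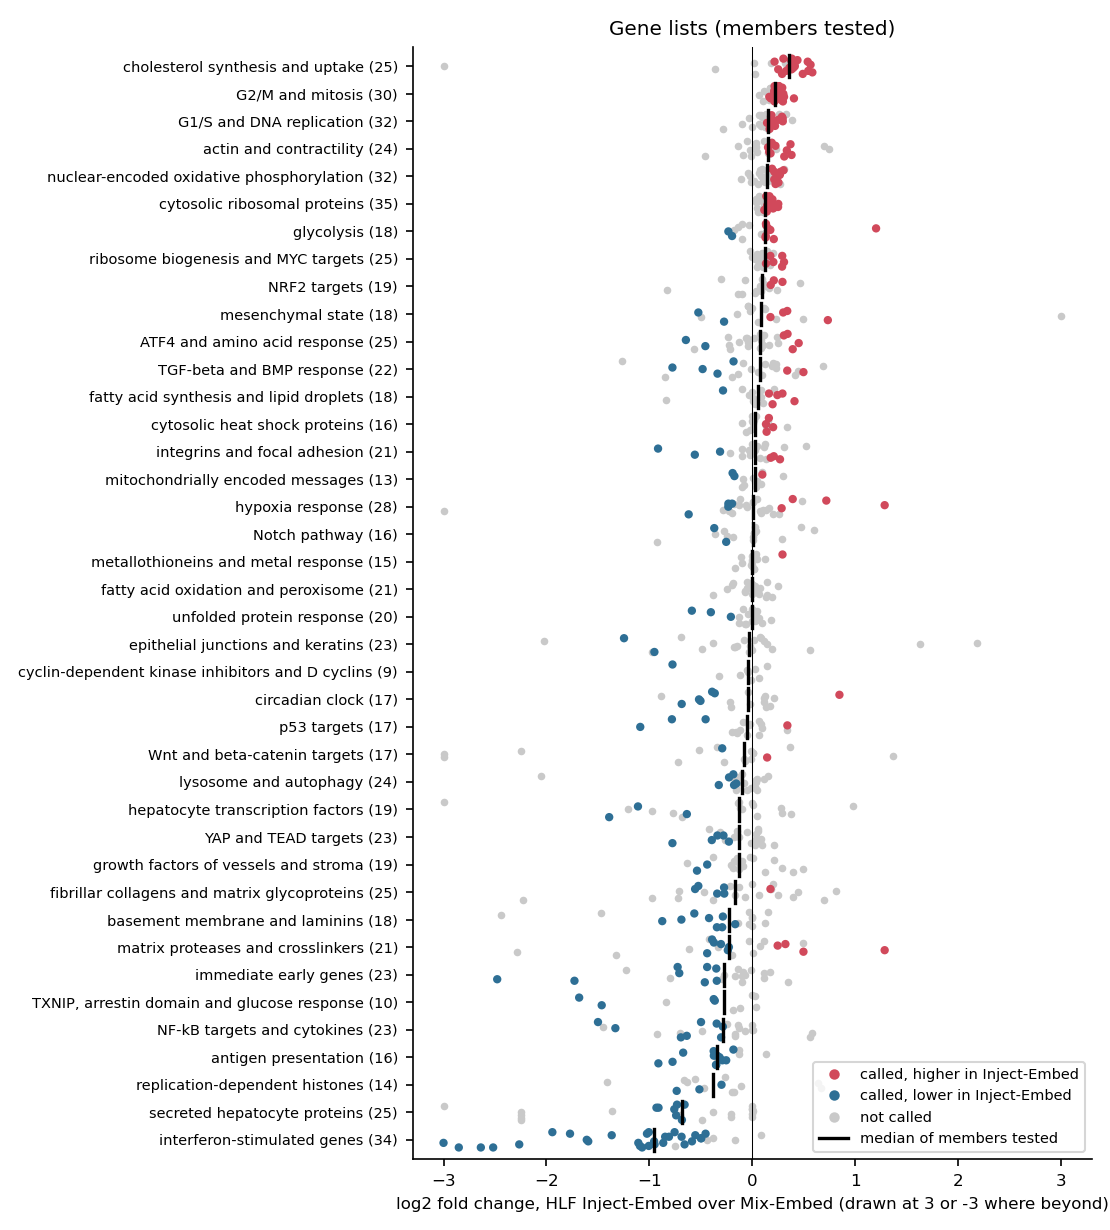
Log2 fold change of Inject-Embed over Mix-Embed in HLF (horizontal axis, drawn at 3 or -3 where beyond) for each tested member (points) of 40 gene lists (rows, with the number tested), red where called higher, blue where called lower, grey where not called, with a black bar at the list's median. Cholesterol synthesis, at a median of 0.36, is at the top and the interferon-stimulated genes, at -0.95, at the bottom.

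The next genes are from the 12 protein-coding genes of highest fold change among those called, separate between the groups and at 10 CPM or more in the higher one. Genes below that level had larger positive fold changes, such as LOX (1.29), at most 3.20 CPM in any of the 4 libraries. SHISA2, of a family that in Xenopus holds back receptors of the Wnt and FGF pathways, had 218 and 214 CPM in Inject-Embed and 116 and 124 CPM in Mix-Embed (0.85 ± 0.06, edgeR quasi-likelihood test, adjusted p = 4.28e-14). PADI3, an enzyme that converts arginine to citrulline, had 47.1 and 48.2 CPM in Inject-Embed and 27.1 and 28.6 CPM in Mix-Embed (0.78 ± 0.11, adjusted p = 1.41e-06). NPAS2, a clock transcription factor, had 11 and 10.2 CPM in Inject-Embed and 6.49 and 5.34 CPM in Mix-Embed (0.85 ± 0.15, adjusted p = 5.35e-05). The pairs of libraries were separate for all 3. S100A4, a calcium-binding protein of mesenchymal cells, was at 0.73 and GLI1, a target and effector of Hedgehog signalling, at 0.72, with calls lost with limma on log2(FPKM + 0.1) for both and without Inject-Embed replicate 1 for GLI1. TIPARP (0.66), an ADP-ribosyltransferase induced by the aryl hydrocarbon receptor, and SURF2 (0.71) were also higher, as were CAMKK1 (0.65), a calcium-dependent kinase, and CPED1 (0.62), which lost their calls with limma on log2(FPKM + 0.1) and, for CPED1, without Inject-Embed replicate 1 or Mix-Embed replicate 2. ENSG00000275895, an unnamed protein-coding gene at chr21:6484623-6499261 (GRCh38), had 7.85 and 45.2 CPM in Inject-Embed and 7.04 and 6 CPM in Mix-Embed, so its fold change of 2.03 rests on Inject-Embed replicate 2, and without that library the call was lost. SSX2 and SSX2B are near-identical copies on the X chromosome whose reads can be split between them. SSX2 was at 1.97 and SSX2B at -2.51 on the log2 scale, while their summed level was 29.4 and 33.6 CPM in Inject-Embed and 22.9 and 37.0 CPM in Mix-Embed, which overlap.

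The counts of the other lists are to be read beside the 3.56% of all genes called higher and the 4.71% called lower. Of 25 secreted hepatocyte proteins, 7 were called, all lower, with a list median of -0.68. With the 4 compared libraries fitted alone, 10 of the 25 passed the count filter and 6 were called lower. FGB, a fibrinogen chain, was at 28.3 and 24.6 CPM in Inject-Embed and 46.7 and 41.8 CPM in Mix-Embed (-0.74 ± 0.07, edgeR quasi-likelihood test, adjusted p = 8.22e-11). AFP had 4.86 and 5.46 CPM in Inject-Embed and 9.7 and 7.07 CPM in Mix-Embed (-0.68), a call lost with limma on log2(FPKM + 0.1) and without Mix-Embed replicate 1. Of 18 genes of the mesenchymal state, 4 were called higher (S100A4, VIM, TNC and TGFBI) and 2 lower (FN1 and SPARC). With limma the higher calls fell to 2 on log2(FPKM + 1) and 1 on log2(FPKM + 0.1), while the lower calls stayed at 2. TGFBI lost its call in both limma fits. Of the 6 mesenchymal markers, VIM and TNC were called higher and FN1 and SPARC lower. VIM, the mesenchymal filament vimentin, stood at 752 and 754 CPM in Inject-Embed and 639 and 584 CPM in Mix-Embed (0.30 ± 0.05, adjusted p = 1.11e-05), while CDH2, N-cadherin, and CD44, a hyaluronan receptor, were not called (adjusted p = 0.741 and 0.869). Among 16 Notch pathway genes the 2 called were lower, JAG1, a ligand (-0.37), and NOTCH2, a receptor (-0.25). ID3 and ID1, targets of BMP signalling, were lower at -0.48 and -0.34. Of 20 unfolded protein response genes 3 were called, all lower (HERPUD1, DNAJB9 and SEL1L; 3, 1, 2 and 2 with 1 library left out), and HSPA5, the chaperone BiP, was not (adjusted p = 0.311). Of 15 metallothioneins and metal response genes, TFRC, the transferrin receptor, was the 1 called (0.29 ± 0.05, adjusted p = 2.19e-05), and MT2A was not (adjusted p = 0.251).

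Huh7, the second line, is a better differentiated hepatocellular carcinoma line. Huh7 Inject-Embed against Huh7 Mix-Embed called 4435 genes (22.9%), 1848 higher (9.55%) and 2587 lower (13.4%). The median of all genes tested was -0.03 there. The difference between the lines, tested as an interaction in the same fit, was called for 2044 genes (10.6%), with the HLF change higher in 1151 (5.95%) and lower in 893 (4.62%). With scaling by library totals alone that split turned round, to 876 higher and 1381 lower. Called in both lines in opposite directions were 199 genes (1.03%). Of the 25 cholesterol genes, 22 were called lower in Huh7, the line difference was called for 22 with the HLF change higher, and 16 were called in opposite directions. HMGCS1 changed by 0.58 ± 0.05 in HLF and -0.53 ± 0.05 in Huh7, a difference of 1.11 ± 0.07 (edgeR quasi-likelihood test, adjusted p = 3.86e-16). Of the 28 hypoxia genes, 24 were called lower in Huh7, with a median of -0.96, and the line difference was called for 22. Of 35 ribosomal proteins, 31 were called lower in Huh7 and 15 in opposite directions. For metallothioneins and metal response genes, a family with near-identical copies, 11 of 15 were called higher in Huh7 with a median of 1.69, and MT2A differed between the lines by -2.21 ± 0.09 (adjusted p = 2.16e-23). EGR1 was at 25.1 and 31 CPM in Huh7 Inject-Embed and 28.7 and 32.3 CPM in Huh7 Mix-Embed, and its change differed by -2.36 ± 0.15 (adjusted p = 3.86e-16). Of the 34 interferon-stimulated genes, 4 were called lower and 1 higher in Huh7, where 9 of the 34 averaged under 1 CPM and 23 under 5 CPM in both cultures (the list summed to 330 and 339 CPM in Inject-Embed and 360 and 351 CPM in Mix-Embed), and the line difference was called for 12, with the HLF change lower in 11. IFI6 differed by -1.55 ± 0.34 (adjusted p = 0.00107), and for IFITM1, XAF1 and BST2 the difference was not called (adjusted p = 0.492, 0.219 and 0.701). TXNIP was lower in Inject-Embed in both lines, with -1.23 in Huh7. Some lists had most of their calls in the same direction in both lines. In Huh7, 6 of 16 antigen presentation genes were called lower and 0 higher, and 7 of 18 basement membrane genes lower and 2 higher. Of 32 oxidative phosphorylation genes 12 were called higher there, and of 30 mitotic genes 10, with 0 lower in each. The line difference was called for 1, 6, 1 and 7 members of these 4 lists, in that order.

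**Figure D5:**
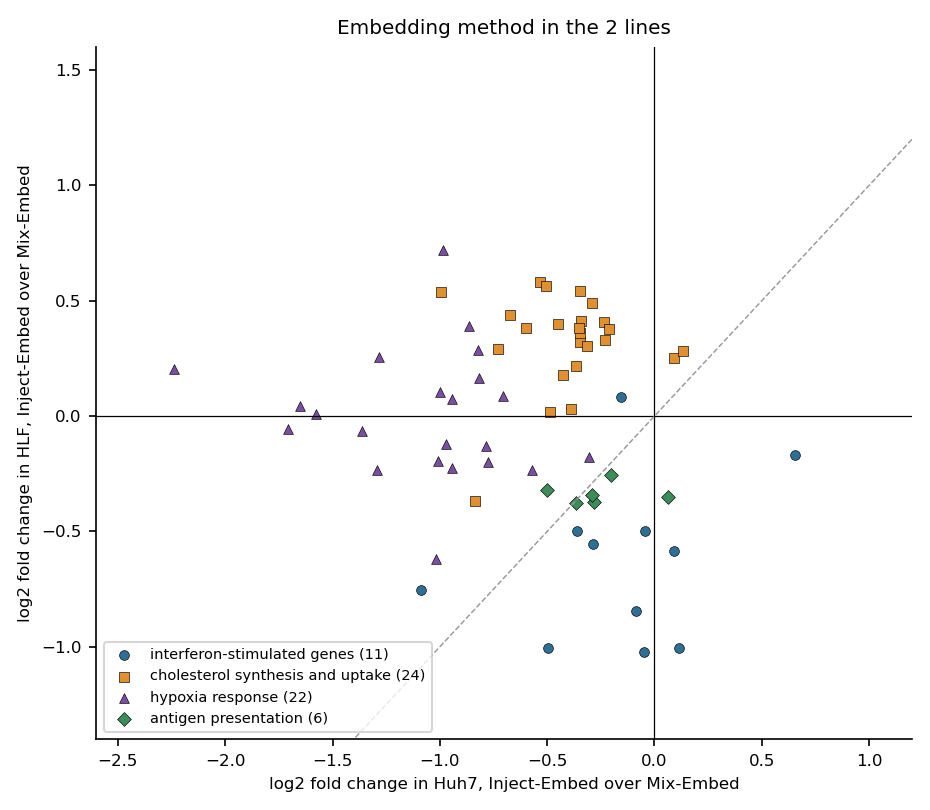
Log2 fold change of Inject-Embed over Mix-Embed in HLF (vertical axis) against that in Huh7 (horizontal axis) for list members with at least 5 CPM in the higher culture of each line, the dashed line marking equal change. Of 24 cholesterol genes drawn, 23 lie above 0 in HLF and 2 above 0 in Huh7, and of 22 hypoxia genes 11 lie above 0 in HLF and 0 in Huh7.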

How the data were processed

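Poly-A RNA of 12 libraries was sequenced in paired reads, per the labels. FastQC, Trimmomatic, STAR 2.7.9a and featureCounts with GRCh38 were used, per the submitters' processing notes; the sources used here name neither their settings, strandedness included, nor an annotation release. Reads of overlapping or antisense genes therefore may not be told apart. The authors deposited whole-number raw counts and FPKM for the same genes. The FPKM equal counts divided by the listed gene length and library total, with a largest relative difference of 1.50e-08 over 167453 values of at least 20 counts.

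The main test was edgeR 4.0.16 in R 4.3.3 on the deposited counts, fitting 6 group means to all 12 libraries after TMM scaling and a minimum count of 10 (filterByExpr, 19342 of 58735 genes). Its quasi-likelihood p-values were adjusted by Benjamini-Hochberg and called at 0.05. The standard error is the absolute log2 fold change over the root of the F statistic. The residual degrees of freedom were 6, the common dispersion 0.00211, or a coefficient of variation of 4.59%. Symbols were matched for 58207 IDs (99.1%). The same test was run on simulated counts. DESeq2 1.42.0 and limma 3.58.1 were alternatives, as were other scalings, filters and sets of libraries, and each library left out in turn, where the lone remaining library is assumed to vary like the other groups.

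Samples were grouped by the culture and line in their labels. The replicates of each group differed beyond sampling noise, with a chi-square over its degrees of freedom of 2.15 in Inject-Embed and 2.85 in Mix-Embed. Promoter sequences come from RefSeq, GRCh38.p14. Named genes were the 12 highest and 12 lowest protein-coding genes called, at 10 CPM or more in the higher group and with separate groups; in each list, at most 4 members ranked by adjusted p plus at most 2 called the other way; and 32 fixed genes. Some genes that the rule names are not reported here. The members and lists were chosen with earlier results of these data known. Figures were drawn with python 3.11.15, pandas 2.3.3, numpy 2.4.6 and matplotlib 3.10.9.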

Additional observations from a re-analysis of the deposited data

Results flagged for a closer look

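The change between Inject-Embed and Mix-Embed differed between HLF and Huh7 by a test of the difference itself (edgeR's quasi-likelihood test of the interaction, Benjamini-Hochberg adjustment) for 2044 genes in all. Values here are the HLF log2 fold change minus that of Huh7.

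Among the 12 lowest and 12 highest genes of HLF, the HLF change was lower for EGR1 (-2.36), IFI6 (-1.55), TXNIP (-0.46) and OAS2 (-6.95). OAS2 had at most 0.255 CPM in the 4 Huh7 libraries, so its difference rests on very few counts there, and IFI6 was at 1.06 and 3.06 CPM in Huh7 Inject-Embed and 1.95 and 2.26 CPM in Huh7 Mix-Embed. The HLF change was higher for NDRG1 (1.70), CAMKK1 (1.31), GLI1 (1.16), NPAS2 (0.74) and TIPARP (0.67). CAMKK1, at most 1.18 CPM in these Huh7 libraries, and GLI1, at most 3.42 CPM, were low in Huh7.

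Of the cholesterol genes, 16 were called in opposite directions in the lines. Among them the differences were 1.11 for HMGCS1, 0.56 for MVK, 1.07 for MVD, 0.71 for IDI1, 1.11 for FDPS, 0.89 for FDFT1 and 0.85 for SQLE, which act from HMG-CoA to squalene epoxide. They were 0.73 for LSS, which makes the first sterol from squalene epoxide, 0.98 for MSMO1, 1.53 for HSD17B7, 0.64 for EBP, 0.58 for SC5D and 0.62 for DHCR7, which act on sterols after it, and 0.78 for ACAT2 and 1.02 for INSIG1, a thiolase and a sterol-dependent inhibitor of the pathway's regulation.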

How the results depend on the processing

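The 1600 calls of HLF Inject-Embed against Mix-Embed, 689 higher and 911 lower, kept within 1.5 times of these counts with RLE scaling (1604), scaling by library totals alone (1525), no filter (1466), a minimum count of 30 (1608), DESeq2 (1201) and fits of the 6 HLF libraries (1989) or the 4 compared libraries alone (1849). limma on log2(FPKM + 1) called 982, 328 of them higher. limma on log2(FPKM + 0.1) called 670, 242 higher and 428 lower, and 712 for a higher HLF change in the line difference, against 1151. With library totals alone, the line difference split into 876 genes with a higher and 1381 with a lower HLF change, against 1151 and 893. With each library left out in turn, the calls numbered 747 to 1033 in all, 247 to 367 higher and 499 to 666 lower, and 718 to 916 genes had a higher HLF change in the line difference; fewer samples were then fitted. The cause of the other shifts was not tested. With the replicate block, 1472 genes were called. The labels do not say that the replicate numbers pair the samples. Over 10316 genes, the correlation of the replicate differences of Inject-Embed and Mix-Embed was 0.0516. With 2 pairs, that value cannot settle whether the samples are paired. Of 183 genes named by the rule, 163 were called and 0 reversed. Of those called, 88 kept direction and call under every alternative that gave them a value, and 75 lost the call under at least 1. IFITM1 and TRIM22, among the 88, had a value under 13 of the 14 alternatives. With 2 libraries a group and 3 counts equal to 0.178 to 0.205 CPM, changes of genes of a few CPM are poorly resolved.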

Other observations

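Circadian clock genes moved both ways. Of 17 tested, NPAS2 was called higher (3.56% of all genes) and 5 were called lower (4.71% of all genes), with a list median of -0.04 on the log2 scale. Those called lower were TEF, HLF, PER3, NR1D1 and DBP (3, 2, 3 and 2 with each of the 4 libraries left out, in the order Inject-Embed replicate 1, Inject-Embed replicate 2, Mix-Embed replicate 1, Mix-Embed replicate 2). TEF, a PAR bZIP factor, had 8.95 and 11.3 CPM in Inject-Embed and 15.6 and 16.9 CPM in Mix-Embed (-0.69 ± 0.14, edgeR quasi-likelihood test, adjusted p = 0.000876). The factor gene HLF, which shares its name with the line, had 12 and 12.1 CPM in Inject-Embed and 18.8 and 15.9 CPM in Mix-Embed (-0.52 ± 0.12, adjusted p = 0.00273). The call of TEF was lost without Inject-Embed replicate 1 and that of HLF without Mix-Embed replicate 1.

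Among amino acid response genes, 4 of 25 were called higher and 2 lower, beside 3.56% and 4.71% of all genes. SLC7A5, the transporter of large neutral amino acids, had 76.8 and 71.8 CPM in Inject-Embed, against 52.3 and 56.3 CPM in Mix-Embed and 199.9 and 210.2 CPM in 2D (0.45 ± 0.06, adjusted p = 1.09e-06). STC2, PSAT1 and SHMT2 were also higher, and CBS and SESN2 were lower, the 2 lower calls being absent without Inject-Embed replicate 2, Mix-Embed replicate 1 or Mix-Embed replicate 2. ASNS, the asparagine synthetase that the amino acid response induces, was under 2 CPM in all 6 HLF libraries.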
